A study of Mus musculus with 18 samples.

Results

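Variable open regions in gene deserts were examined in ATAC-seq peak lists of whole mouse retina. ATAC-seq uses a transposase to insert sequencing adapters into accessible DNA, so that fragments pile up where chromatin is open. Peaks of 18 lists, 1 per library, were merged where they overlapped by 1 bp or more. A merged region was kept when it was under 1200 bp wide, was called in 2 to 17 of the lists, and had a median summit more than 200 kb from every protein-coding transcription start site (TSS). The regions were therefore chosen by the measured number of lists that called them, by their width and by their position. Of 99792 merged regions, 73567 were called in 2 or more lists (consensus regions), 48678 of these were variable (2 to 17 lists and under 1200 bp), and 3297 variable regions met the distance rule. They made up 6.77% of the variable regions and 4.48% of the consensus regions.

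The libraries came from retinas of wild-type (WT) mice at 3 or 18 months of age (3mo, 18mo), which the study's text calls C57BL/6. At each age, 3 libraries came from eyes whose intraocular pressure (IOP) was raised once to 30 mmHg over 1 hour, 3 from the opposite eyes of pressured animals, without raised pressure (contralateral, replicates 1 to 3), and 3 from retinas labelled untreated (replicates 4 to 6). The labels place collection of the pressured and contralateral retinas on day 2, whereas the study's text gives another day. All labels share a text on dasatinib and vehicle injection and a text on crosslinking and immunoprecipitation, but none puts a library in a drug arm, and the ATAC-seq protocol in the study's methods has transposition of nuclei from each eye and no crosslinking.

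A gene can be controlled by enhancers, short stretches of DNA that bind transcription factors and act over long distances by looping to a promoter. Long stretches without protein-coding genes often lie beside developmental regulators and hold many such elements, which as a rule are more cell-type-specific than promoters. In the retina, Crx and Otx2 bind the core TAATCC in photoreceptors and bipolar cells, proneural factors such as Neurod1 bind E-boxes, and AP-1 (Fos and Jun dimers), which responds to stress and injury, binds TGANTCA. The factor CTCF marks loop anchors and insulators.

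The windows below show 200 bases around the median summit (mm10, plus strand, 5′ to 3′, read from the RefSeq copy of GRCm38). They belong to the region of highest rank in the desert that held the most regions, the region farthest from a protein-coding TSS, the leading region for each direction of age, and the leading regions gained and lost after IOP at 18 months. Capitals mark matches, on either strand, to 1 of 7 short motifs: TAATCC (Crx/Otx2), TAATTA (homeodomain), CAGATG (NeuroD-type E-box), CAGCTG (a palindromic E-box), TTCNNNGAA (STAT), TGANTCA (AP-1) and AGGTCA (nuclear receptor), or to the CTCF motif. The AP-1, STAT, CAGCTG and homeodomain motifs read the same on both strands, and a match may overlap another. A match is a description of the letters and not a measured binding site.
Desert between Tbc1d22a and Fam19a5, chr15:86699218-86699417: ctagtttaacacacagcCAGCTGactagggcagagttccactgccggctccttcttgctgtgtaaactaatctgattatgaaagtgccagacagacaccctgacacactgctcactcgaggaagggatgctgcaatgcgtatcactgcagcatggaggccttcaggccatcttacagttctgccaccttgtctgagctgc
Farthest from a TSS, chr14:91326744-91326943: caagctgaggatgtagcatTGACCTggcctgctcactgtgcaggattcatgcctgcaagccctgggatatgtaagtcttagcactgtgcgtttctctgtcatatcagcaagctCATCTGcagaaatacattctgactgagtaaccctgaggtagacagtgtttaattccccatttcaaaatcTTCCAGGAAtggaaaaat
Called at 18mo, in the Dock4 body, chr12:40734673-40734872: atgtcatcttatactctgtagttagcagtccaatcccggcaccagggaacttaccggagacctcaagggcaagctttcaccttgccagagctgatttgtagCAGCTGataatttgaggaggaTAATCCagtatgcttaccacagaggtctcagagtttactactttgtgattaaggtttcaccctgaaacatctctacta
Called at 3mo, between Mmadhc and Rnd3, chr2:50750912-50751111: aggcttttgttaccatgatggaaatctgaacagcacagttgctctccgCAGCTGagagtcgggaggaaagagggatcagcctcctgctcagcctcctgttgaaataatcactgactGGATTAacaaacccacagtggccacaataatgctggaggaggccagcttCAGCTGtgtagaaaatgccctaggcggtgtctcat
Gained after IOP at 18mo, in the Ebf1 body, chr11:44902265-44902464: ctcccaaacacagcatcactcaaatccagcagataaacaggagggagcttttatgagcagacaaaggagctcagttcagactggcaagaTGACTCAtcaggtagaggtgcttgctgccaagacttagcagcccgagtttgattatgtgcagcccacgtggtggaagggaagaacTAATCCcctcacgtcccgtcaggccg
Lost after IOP at 18mo, between Gm10800 and B230118H07Rik, chr2:101261522-101261721: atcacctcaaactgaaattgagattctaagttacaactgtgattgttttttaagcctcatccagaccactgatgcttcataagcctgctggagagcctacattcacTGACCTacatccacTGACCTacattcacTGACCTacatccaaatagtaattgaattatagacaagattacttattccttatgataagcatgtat

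The lists held 36011 to 66160 peaks per library. Sequencing depth is not given in them, but the fragments stacked at each summit could be recovered as whole numbers from the deposited fold and p-value for 99.97% of peaks, with a background of 0.731 to 1.84 fragments per position. The background was 0.731 to 0.946 in untreated and 1.38 to 1.84 in pressured and contralateral libraries. Fragment counts given below are not scaled for this, so they are not directly comparable between these kinds of library. The shortest peak, which in MACS2 is by default the fragment length, was 79 to 89 bp in the 6 untreated libraries. Among the pressured and contralateral ones it was 114 to 122 bp in 5 and 148 to 157 bp in 7. The kind of control and this class cannot be told apart. Promoters of 9 of 13 retinal marker genes, among them Crx, Nrl and Otx2, were called in all 18 libraries and the other 4 in 9 to 15. No promoter of 11 markers of pigment epithelium, blood and microglia, endothelium or other tissues was called in any library. A region that is not called may be open below the caller's threshold. In whole retina, fewer cells with an open region and less opening per cell cannot be told apart.

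The desert regions were small and weak, which the limits on width and number of lists favour in any variable region. Their width ran from 84 to 1097 bp with a median of 284 bp, against 298 bp for the 40469 variable regions within 200 kb of a TSS and outside promoters (1 kb upstream to 100 bp downstream of a TSS of any biotype). A median of 12 fragments lay at their 22905 summits, with a range of 5 to 64. In single libraries the median was 9 to 14 fragments, against 11 to 17 for the other variable regions and 18 to 28 over all peaks of a library. It was lower than that of the other variable regions by 1 to 3 fragments in 18 of 18 libraries. By rank, the difference did not pass a test. The median percentile of −log10 q among all peaks of a library of the desert regions minus that of the other variable regions was -0.831 ± 2.72 points (SD, n = 18 libraries, which share the regions). It was lower in 5 of 18 libraries and exactly 0 or higher in the others (p = 0.22, two-sided permutation test with 100000 sign changes). At exactly 0 both medians fell on the same −log10 q, a value that weak peaks often share. A small difference in rank could not show in those libraries. The lowest values were -7.59 and -5.13 points in 18mo untreated replicates 4 and 5 and -5.73 in 3mo untreated replicate 6. Untreated replicates 5 of 3mo and 6 of 18mo were at 0, and the highest value was 2.51 in 3mo IOP replicate 2.

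Few libraries called each region. The median was 5 lists, against 6 for the other variable regions. Regions called in 2 or 3 lists made up 33.6% (1109 regions), against 30.5% of the other variable regions, and those called in 9 or more lists 31.8% (1050 regions), against 38.3%. Both ages called 2792 of the regions, 315 were called at 3 months only and 190 at 18 months only, and 748 were called in every group. These counts were not set against those of other regions. A region in few lists can miss an age or a group for that alone. The desert regions called by both of a pair of libraries, as a fraction of those called by either, had a median of 0.420 within groups (18 pairs, range 0.246 to 0.564) and 0.353 between groups (135 pairs, range 0.162 to 0.592). Over the other variable regions, which were kept by the same limits on lists and width, the medians were 0.455 and 0.399.

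**Figure D1:**
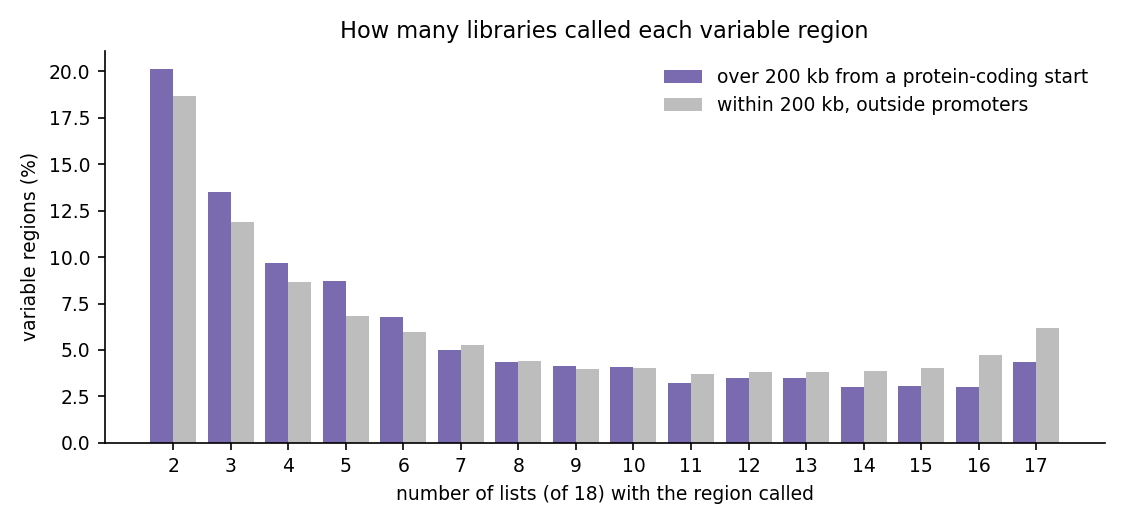
Number of lists (of 18) that called each variable region, as the percent of 3297 regions over 200 kb from a protein-coding TSS (purple) and of 40469 regions within 200 kb and outside promoters (grey). The purple bars are higher at 2 to 6 lists and lower at 11 to 17 lists, and 20.1% of the desert regions were called in 2 lists.

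Among all merged regions, calls in every library became rarer with distance from a TSS. Of consensus regions within 1 kb of a protein-coding TSS, 73.1% were called in all 18 lists. This fell to 24.4% at 10 to 50 kb, 14.8% at 100 to 200 kb, 10.9% at 200 to 500 kb and 9.27% beyond 500 kb. At the limits of the rule the values changed little with distance. The 1489 variable regions at 150 to 200 kb were called in a median of 6 lists at a mean percentile of 22.5, and the 904 at 200 to 250 kb in 5.5 lists at 22.6. Beyond 200 kb, 1912 regions were in 1 list, 663 in 2, 143 in 17 and 362 in all 18 lists at under 1200 bp, and 3 variable regions were wider. The mean percentile rose from a median of 42.1 at 17 lists to 58.8 at 18 lists.

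The word desert held for most but not all of these regions. Inside the body of a protein-coding gene lay 854 of them (25.9%), in introns or exons far from any start of a protein-coding transcript. Starts of other transcripts of the same gene could be nearer, as in Ebf1, where 1 lay 9.77 kb from chr11:44901968-44902519. These were spread over 248 genes, led by the cell adhesion gene Negr1 with 20 regions, and the kinase gene Camk1d with 19, and included the postsynaptic scaffold gene Dlg2 and the oxidoreductase gene Wwox with 15 each. A further 429 lay only in the body of a noncoding gene, and 2014 (61.1%) lay in no gene body. Starts of noncoding transcripts were close: the median distance to a TSS of any biotype was 39.5 kb, 160 regions lay within 1 kb of one, and only 197 were over 200 kb from all of them. The distance to the nearest protein-coding TSS had a median of 311 kb and quartiles of 245 and 447 kb, with 635 regions beyond 500 kb and 111 beyond 1 Mb.

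Sequence over 200 kb from a protein-coding TSS made up 756 Mb, or 27.7% of the genome, and held 4.36 of the variable regions per Mb. The density was highest on chromosome 13 with 7.30 per Mb and chromosome 12 with 6.07 per Mb. It was lowest on chromosome X with 1.75 and chromosome Y with 0.262 per Mb. These lengths count every base of the assembly, with no gap or repeat removed, and how well reads map there was not examined. Of 1318 stretches between neighbouring protein-coding TSSs that reach that far, 779 held at least 1 region, 211 held exactly 1, and 68 held 10 or more, which together took 1026 of the regions. The gap to the next region had a median of 69.3 kb.

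Neighbouring genes were counted in 2 lists. A stretch bordered by 1 of 167 retinal and neural transcription factor genes held 390 regions (11.8%), while such stretches held 7.46% of the desert sequence. For 131 cell adhesion and synapse genes the count was 682 regions (20.7%), against 27.8% of the sequence. Regions over 200 kb called in all 18 lists had shares of 12.3% and 15.9%. These shares are descriptions and were not tested.

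The 6 stretches with the most regions lay between Tbc1d22a and Fam19a5 (35 regions in 1309 kb), Ythdf3 and Cypt12 (31 in 1765 kb), Slc4a3 and Epha4 (28 in 1828 kb), Cd83 and Jarid2 (27 in 945 kb), Nr5a2 and Ptprc (24 in 1215 kb), and Celf4 and Pik3c3 (24 in 4519 kb). Epha4 encodes an ephrin receptor of axon guidance, Jarid2 a subunit of the Polycomb repressive complex, and Celf4 a neuronal RNA-binding protein. Ptprc encodes the leukocyte antigen CD45, whose own promoter was called in no library. Each stretch also held regions called in all 18 lists, from 3 between Ythdf3 and Cypt12 to 10 between Tbc1d22a and Fam19a5 and between Cd83 and Jarid2.

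Between Ythdf3 and Cypt12 lies the gene of Mir124a-2, a precursor of the neuronal microRNA miR-124. Its nearest desert region was 90.2 kb away. The region of highest rank in this stretch, chr3:17620448-17620734, was called in 14 lists with 16 to 37 fragments at the summit. The 3mo contralateral libraries held 20, 27 and 18 fragments, the 3mo untreated ones 30, 23 and 37, the 18mo contralateral ones 23, 33 and 19, and the 18mo untreated ones 20, 19 and 23. All 12 control libraries called it, but only 2 of 6 IOP libraries did, 3mo replicate 1 with 16 and 18mo replicate 2 with 19 fragments. Over the 31 regions of the stretch, the mean number called was 17, 12 and 18 in 3mo contralateral, IOP and untreated libraries, and 15.3, 8.67 and 13.7 at 18mo. At 3mo, contralateral libraries called 12, 23 and 16 and IOP libraries 13, 12 and 11, which overlapped. At 18mo the counts were 15, 12 and 19 in contralateral and 11, 11 and 4 in IOP libraries. Over all desert regions the contralateral and IOP means were 1343 and 1166 at 3mo and 1692 and 944 at 18mo.

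Between Nr5a2 and Ptprc lie Mir181a-1 and Mir181b-1, with 8 of the 24 regions within 100 kb of them. The region of highest rank there, chr1:137927938-137928214, lay 0.111 kb from the start of the noncoding gene A130050O07Rik and in the body of Gm4258, which held 7 regions in all. It was called in 15 lists with 22 to 50 fragments. The untreated libraries held 38, 40 and 50 fragments at 3mo and 44, 42 and 47 at 18mo. At 3mo only replicate 2 of the contralateral libraries called it, with 40 fragments, while the 18mo contralateral ones held 41, 27 and 42. The number of regions called in this stretch was 7, 3 and 11 in 3mo untreated libraries and 7, 2 and 2 in 18mo untreated ones, which overlapped.

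In the stretch between Slc4a3 and Epha4, chr1:76535925-76536490 was called in 17 lists, missing only from 3mo IOP replicate 3, with 10 to 33 fragments. It lay 841 kb from the Epha4 start and 26.7 kb from the start of Mir6343. In the stretch between Tbc1d22a and Fam19a5, chr15:86699184-86699482 was missing only from 3mo contralateral replicate 1 and held 14 to 29 fragments. In that stretch 3mo contralateral replicate 2 called 23 of the 35 regions and replicate 1 called 4, so 2 libraries of 1 group marked the ends of the range. In the stretch between Cd83 and Jarid2, chr13:44360918-44361490 was missing only from 3mo untreated replicate 5 and held 13 to 33 fragments.

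**Figure D2:**
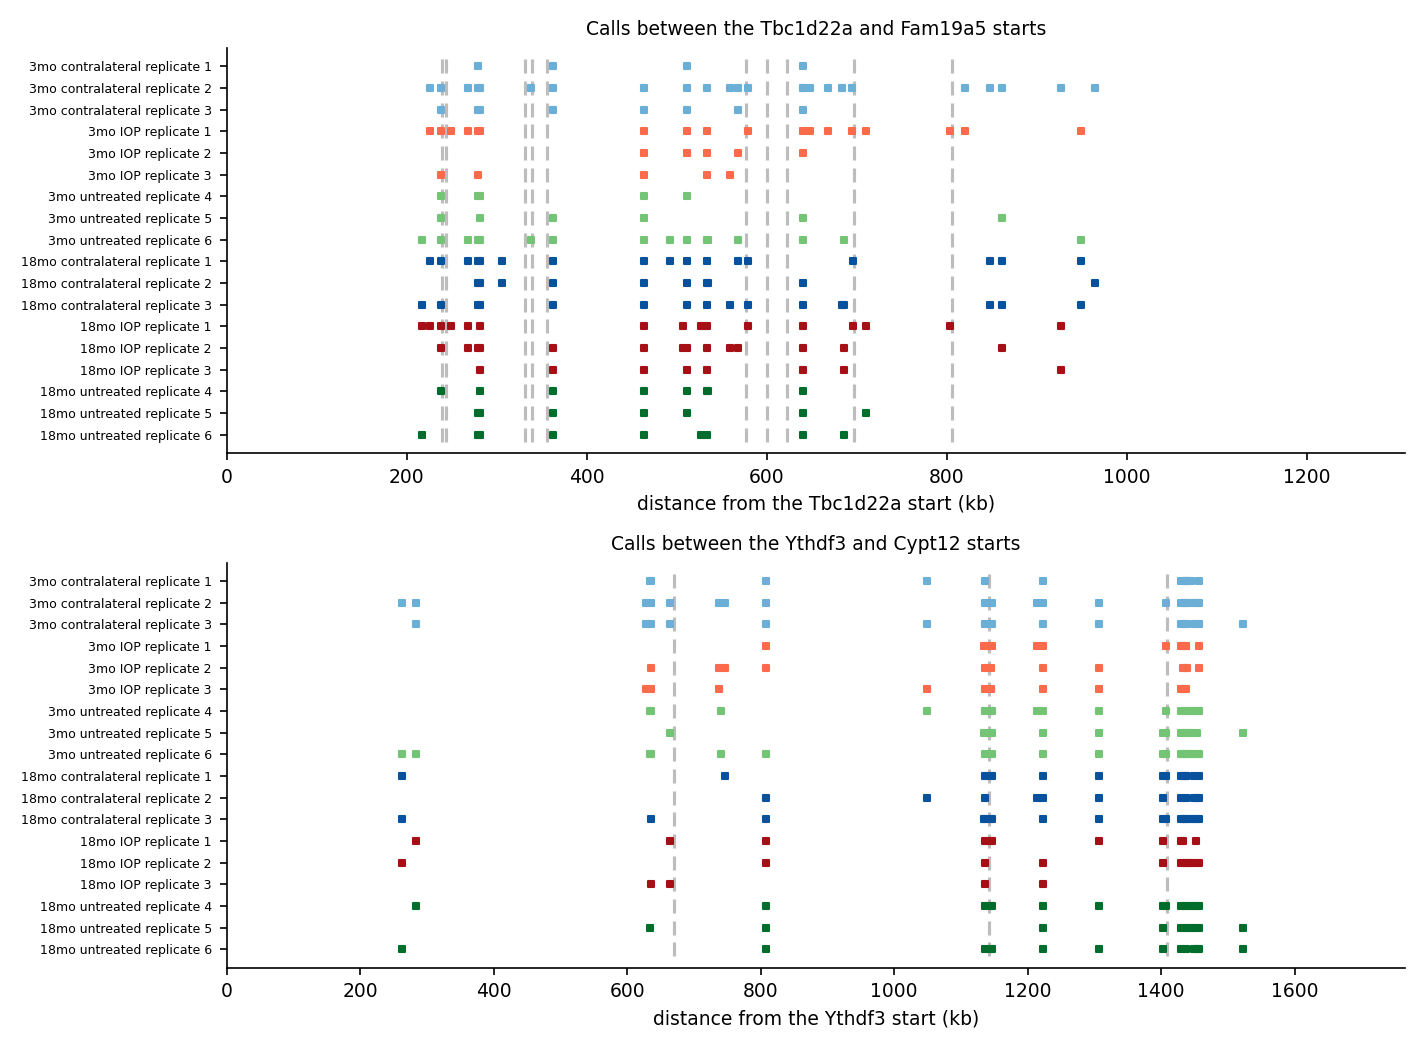
Calls in the 2 stretches with most regions, by distance in kb from the left protein-coding TSS (x) and by library (y). Squares are variable regions called in that library, coloured by group, and grey ticks are regions called in all 18 lists. Between Tbc1d22a and Fam19a5 the rows hold 4 to 23 squares, with the most in 3mo contralateral replicate 2, and between Ythdf3 and Cypt12 4 to 23 squares, with the fewest in 18mo IOP replicate 3.

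Soft-masked repeats filled at least 50% of the window of 204 regions, and of 9 of the 20 regions of highest rank. Among regions in 9 or more lists, the second by rank, chr6:31803193-31803548, lay wholly in masked sequence and held 13 to 64 fragments in 13 lists. The third, chr10:100891149-100891783, held no masked base and was missing only from 18mo IOP replicate 1, with 13 to 35 fragments in the other 17.

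The farthest regions were weak. chr14:91326686-91327003, shown above, lay 2559 kb from the nearest protein-coding TSS, that of the protocadherin gene Pcdh9, in the stretch between Pcdh20 and Pcdh9. It was called in 8 lists with 7 to 14 fragments: 2 of 3 in each of the 3mo contralateral, 3mo untreated, 18mo contralateral and 18mo IOP groups. In the same stretch chr14:90821466-90821718, at 2350 kb, was called in 5 lists with 6 to 12 fragments. The third, chr1:102378675-102378873, lay 2281 kb from Cntnap5b and was called in 4 lists with 8 to 11 fragments.

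The windows of the desert regions were GC-poor for open chromatin and richer in most of the motifs than their surroundings. The median GC content was 48.0%, against 50.5% in the other variable regions, 52.5% in all consensus regions and 42.0% in windows 1 kb to either side of the summits. CpG dinucleotides averaged 2.89, 3.56, 6.51 and 1.63 per window in the same order. CAGATG was found in 24.8% of the desert windows and in 14.8% of the windows beside them, CAGCTG in 20.8% and 7.59%, TAATCC in 15.4% and 6.63%, AGGTCA in 14.9% and 10.5%, and TGANTCA in 8.52% and 6.25%. TAATTA (6.92% and 7.77%) and TTCNNNGAA (5.58% and 7.63%) were less frequent at the summits than beside them. The CTCF motif was in 3.97% of the desert windows, 6.12% of the other variable ones and 0.0455% of those beside the summits. Over all consensus regions the shares were 18.6% for CAGATG, 17.3% for CAGCTG, 15.4% for TAATCC, 14.7% for AGGTCA, 6.60% for TGANTCA, 4.14% for TAATTA, 4.40% for TTCNNNGAA and 6.31% for CTCF.

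The Crx/Otx2 core differed most with the number of lists. TAATCC was in 12.3% of desert regions called in 2 or 3 lists, 15.8% of those in 4 to 8, 18.3% of those in 9 to 17 and 27.6% of the 391 regions over 200 kb called in all 18. The E-box CAGATG stayed at 25.4%, 23.6%, 25.6% and 23.8% in the same order.

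**Figure D3:**
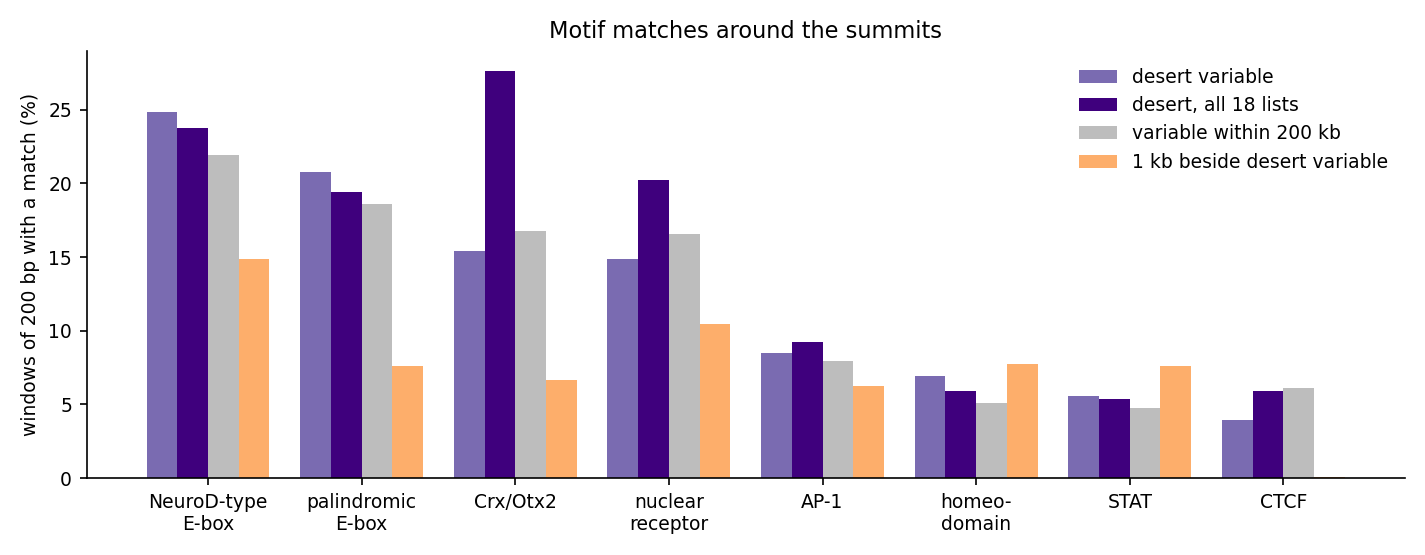
Percent of 200 bp windows with a match to each motif, for desert variable regions, regions over 200 kb called in all 18 lists, variable regions within 200 kb, and windows 1 kb beside the desert summits. E-boxes and TAATCC (labelled Crx/Otx2) are above the windows beside the summits, and TAATCC is highest, at 27.6%, in desert regions called in all 18 lists.

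The set of desert regions that a library called also differed in this motif. Of the regions called, 22.4%, 23.8% and 25.4% held TAATCC in the 18mo untreated libraries and 19.8%, 17.7% and 18.2% in the 3mo untreated ones. The range was 13.7% to 15.8% in 3mo contralateral, 13.6% to 15.3% in 3mo IOP, 14.0% to 17.3% in 18mo contralateral and 14.2% to 18.0% in 18mo IOP libraries. The 18mo untreated libraries were above all others and did not overlap with the 3mo untreated ones, whereas the contralateral ages overlapped. Other variable regions had the same order, at 24.1% to 24.4% in 18mo untreated, 19.4% to 22.1% in 3mo untreated and 13.3% to 18.7% in the remaining libraries, so the pattern was not particular to deserts. The untreated libraries were also those with the shortest peaks, and the part of this in the result was not tested.

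**Figure D4:**
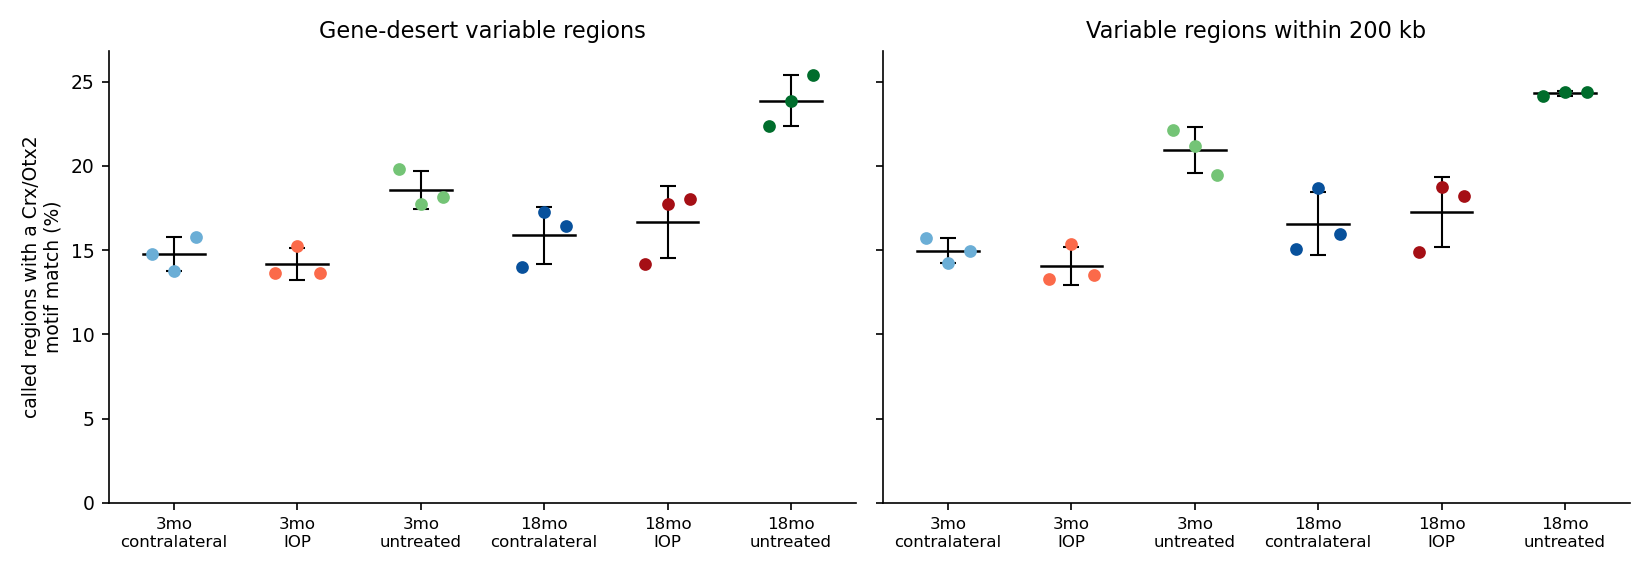
Percent of called regions with a TAATCC match (labelled Crx/Otx2) in each library, for desert variable regions (left) and variable regions within 200 kb (right), with points for libraries and lines for the mean ± SD of 3. The 18mo untreated libraries are highest in both panels, at 22.4% to 25.4% on the left.

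The first comparison asked whether these regions differed between control retinas of 3 and 18 months. The number called was 785, 2262 and 981 in 3mo contralateral and 1069, 1191 and 1939 in 3mo untreated libraries. At 18mo it was 1950, 1529 and 1597 in contralateral and 1095, 873 and 961 in untreated libraries. The ages overlapped widely, with means of 1371 ± 589 at 3mo and 1334 ± 423 at 18mo (SD, n = 6 each, difference −37.0, p = 0.898, exact permutation test, adjusted p = 1.0 over 8 tests). The largest number came from 3mo contralateral replicate 2, which called 68.6% of the desert regions and was 1 of the 2 callers of 259 of the 663 regions in 2 lists. Without it the difference turned to 141 more regions at 18mo (p = 0.584, exact permutation test), and it also turned without 3mo untreated replicate 6 (76.6) or without untreated replicate 4, 5 or 6 of 18mo (10.8, 55.2 and 37.6).

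Since libraries with more peaks call more of any set, the desert regions were also taken as a share of the variable regions called in the same library. The share was 6.22%, 6.81% and 6.64% in 3mo contralateral, 5.85%, 7.56% and 6.63% in 3mo untreated, 6.56%, 6.51% and 5.84% in 18mo contralateral and 5.15%, 4.62% and 4.52% in 18mo untreated libraries. The mean was 6.62% ± 0.580 at 3mo and 5.54% ± 0.905 at 18mo (SD, n = 6 each). The difference of −1.08 points had p = 0.0368 by an exact permutation test and did not pass after adjustment over 8 tests (adjusted p = 0.294). It lay in the untreated controls, where all 3 libraries of 18mo were below all 3 of 3mo (difference −1.92 points, exact permutation p = 0.1, the smallest possible with n = 3 each). In contralateral controls it was −0.253 points (p = 0.5, exact permutation test). The difference between these age effects was −1.66 points (p = 0.105, permutation within each kind of control). As a share of all consensus regions called, the age difference was −0.202 points (p = 0.619, exact permutation test). Within the contralateral libraries of the long class (148 to 157 bp) the shares were 6.22% and 6.64% at 3mo and 6.51% at 18mo, and within the short class (114 to 122 bp) 6.81% at 3mo and 6.56% and 5.84% at 18mo. The kind of control itself differed by −0.706 points (untreated 5.73% ± 1.2, contralateral 6.43% ± 0.349, SD, n = 6 each, p = 0.197, exact permutation test, adjusted p = 0.4). With peak numbers set equal across libraries it was −1.10 points (exact permutation p = 0.0195, adjusted p = 0.156), and without 3mo untreated replicate 5 it was −1.07 points, while without 18mo untreated replicate 6 it was −0.465 points.

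**Figure D5:**
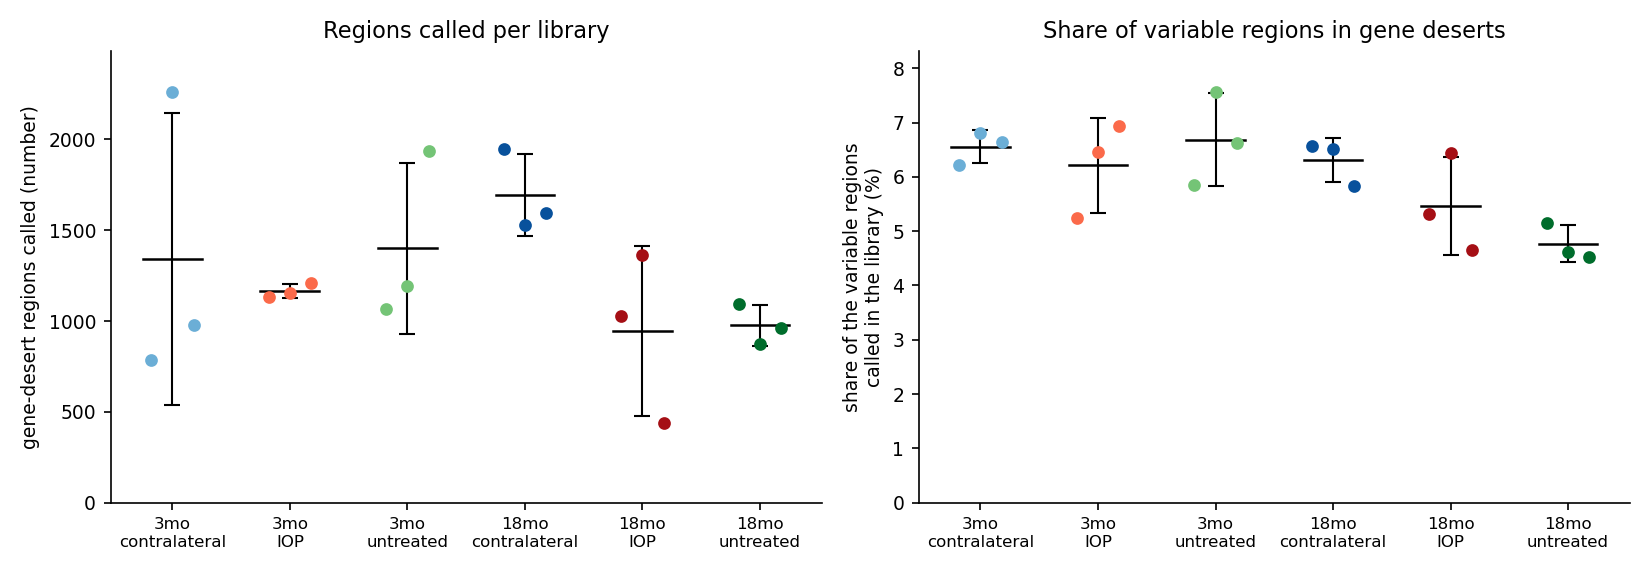
Number of desert regions called per library (left) and their share of the variable regions called in the same library in percent (right), with points for libraries and lines for the mean ± SD of 3. The 18mo untreated libraries hold shares of 4.52% to 5.15%, below all 3mo untreated libraries, and 3mo contralateral replicate 2 has the most regions, 2262.

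Region by region, 0 of 704 testable desert regions passed Fisher's exact test after adjustment over 9868 consensus regions (0.0% called over all). At an unadjusted p under 0.05, 24 were called more often at 18mo (3.41%, background 3.19% of all testable regions) and 5 more often at 3mo (0.71%, background 0.385%). The 18mo share was near the background, and the 3mo count is too small to read. The design itself limits this test: with 6 libraries against 6 the smallest possible p is 0.00216, and 428 regions at that value would be needed for any to pass, whereas 62 reached it.

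Called in all 6 controls of 18mo and none of 3mo were 6 of the 235 desert regions that could be (2.55%, background 1.81%), and 0 showed the reverse (background 0.125%). The 6 became 12 without 3mo untreated replicate 6, and the 0 became 1 without any of 5 libraries, contralateral replicates 1 and 3 and untreated replicates 4 and 5 of 3mo and contralateral replicate 1 of 18mo. Among the 6, chr12:40734551-40735015 lay in the body of Dock4, which encodes an activator of small GTPases, 288 kb from the nearest protein-coding TSS. It held 12, 20 and 15 fragments in the 18mo contralateral and 13, 12 and 20 in the 18mo untreated libraries, and was called in 18mo IOP replicates 1 and 2 with 14 and 23. No 3mo library of any kind called it (Fisher's exact p = 0.00216, adjusted p = 0.345). The region chr2:48398478-48398814, between the transcription factor gene Zeb2 and the activin receptor gene Acvr2a, held 13, 11 and 13 fragments in the contralateral and 10, 12 and 20 in the untreated libraries of 18mo. It was called in 18mo IOP replicates 2 and 3 with 19 and 15 fragments, and again in no 3mo library. The region chr12:7029479-7029956, 948 kb from Apob, held 11, 17 and 10 fragments in contralateral and 10, 16 and 15 in untreated libraries of 18mo and was called in no IOP and no 3mo library.

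In the reverse direction chr2:50750914-50751106, between Mmadhc and the GTPase gene Rnd3, was called in 5 of 6 controls of 3mo, with 11, 15 and 11 fragments in contralateral libraries and 9 and 7 in untreated replicates 4 and 6. None of the 13 other libraries called it (Fisher's exact p = 0.0152, adjusted p = 0.424). The region chrX:10992255-10992775 was called in all 9 libraries of 3mo with 6 to 15 fragments and in 2 of 9 at 18mo, contralateral replicate 1 with 14 and IOP replicate 2 with 8.

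Within each kind of control the directions differed. In untreated libraries 79 desert regions were called in 3 of 3 at 3mo and 0 of 3 at 18mo (20.8% of 379, background 10.9%), and 36 the reverse (9.5%, background 12.5%). In contralateral libraries 10 were called at 3mo only (1.93% of 517, background 1.3%) and 70 at 18mo only (13.5%, background 12.2%). In contralateral libraries the mean number of variable regions called moved with this (20200 ± 11314 at 3mo, 26850 ± 3144 at 18mo). In untreated libraries it was 21084 ± 7177 at 3mo and 20455 ± 1365 at 18mo (SD, n = 3 each). Single untreated libraries called 18265, 15744 and 29243 at 3mo and 21246, 18878 and 21240 at 18mo, which overlapped. The part of these numbers in the counts of either kind of control was not tested.

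The next comparison asked what a single rise of pressure changed. At 3mo, IOP libraries called 1134, 1153 and 1211 of the desert regions, within the range of the contralateral ones (mean 1166 ± 40.1 against 1343 ± 802, SD, n = 3 each, p = 1.0, exact permutation test). The share was 5.24%, 6.47% and 6.94% (difference −0.342 points, p = 0.7, exact permutation test), and without IOP replicate 1 the difference turned to 0.143 points. Without 3mo contralateral replicate 2, IOP libraries called 283 more regions than contralateral ones. At 18mo, IOP libraries called 1030, 1363 and 438, all below the contralateral ones (mean 944 ± 469 against 1692 ± 226, SD, n = 3 each, difference −748). Without IOP replicate 3 the difference was −496, and with peak numbers set equal across libraries, which left 1689 desert regions, it was −85.3 (p = 0.2, exact permutation test). The exact permutation p of 0.1 is the smallest this design allows, and the adjusted p was 0.4. The share was 5.31%, 6.43% and 4.65%, and its difference of −0.839 points (p = 0.2, exact permutation test) did not pass, and was −0.433 points without IOP replicate 3 and −1.32 points without IOP replicate 2. Peak numbers moved with the count: the variable regions called were 16668 ± 6347 in IOP and 26850 ± 3144 in contralateral libraries of 18mo, and the library with 438 regions, IOP replicate 3, had the fewest peaks of all. The difference between ages in the effect of IOP on the share was −0.497 points and did not pass (p = 0.57, permutation of treatment within age), with −0.091 points without 18mo IOP replicate 3, −0.137 without 3mo IOP replicate 3, −0.327 without 3mo contralateral replicate 1, −0.980 without 18mo IOP replicate 2 and −0.983 without 3mo IOP replicate 1.

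At 18mo, 134 desert regions were called in 3 of 3 contralateral and 0 of 3 IOP libraries (lost, 31.6% of the 424 that could be, background 26.4%), and 11 in 3 of 3 IOP and 0 of 3 contralateral libraries (gained, 2.59%, background 2.83%). At 3mo, 13 were lost (3.3% of 394, background 3.22%) and 4 gained (1.02%, background 2.91%). Leaving out a library loosens the rule to 2 of 2 on its side. The 4 then became 54 without contralateral replicate 2, 7 without contralateral replicate 1, and 37, 14 and 9 without IOP replicates 1, 2 and 3, and the 13 became 103 and 58 without contralateral replicates 1 and 3 and 23, 37 and 27 without the IOP replicates. At 18mo, the 11 became 25 and 34 without IOP replicates 1 and 3, and the 134 became 282, 237 and 284 without contralateral replicates 2 and 3 and IOP replicate 2. Without IOP replicate 3, which had the fewest peaks, 141 were lost at 18mo. With peak numbers set equal across libraries, 30 were lost, of the 1689 desert regions that this setting left. The number that could be lost and the background were not computed for this setting, so the 30 cannot be set against the 31.6%. In the libraries that did not define them, 29, 107 and 42 of the 134 were called in 3mo contralateral and 45, 57 and 49 in 3mo IOP libraries. The counts were 55, 55 and 88 in 3mo untreated and 56, 49 and 49 in 18mo untreated libraries. Of the 134, 14 held the CTCF motif (10.4%, against 3.97% of all desert regions and 10.8% of all 1642 lost regions) and 8 TGANTCA (5.97%).

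Leading the lost regions, chr2:101261491-101261741 held 13, 18 and 14 fragments in 18mo contralateral and 19, 24 and 27 in 18mo untreated libraries, and was called in no IOP library of either age. At 3mo it held 21, 22 and 28 fragments in untreated libraries and 11 in contralateral replicate 2. Its window, shown above, held 3 copies of TGACCT, the reverse complement of AGGTCA, with 14 bases from the start of each to the next. The next, chr5:22098876-22099301, lay in the body of Reln, the gene of the secreted layering factor reelin. It held 21, 20 and 24 fragments in contralateral and 17, 31 and 20 in untreated libraries of 18mo, and was called in 1 of 6 IOP libraries, 3mo replicate 1 with 13 fragments. At 3mo the leading lost regions were chr15:86597547-86597936 in the Tbc1d22a to Fam19a5 stretch, with 21, 33 and 18 fragments in contralateral libraries, and chr13:110627651-110627997 at the start of the noncoding gene Gm33045, with 13, 17 and 10. The former was called in 2 of 3 IOP libraries of 18mo. The latter was called in no untreated library of either age.

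Of the gained regions, chr11:44901968-44902519 in the body of Ebf1, a transcription factor gene, held 31, 45 and 27 fragments in the 18mo IOP libraries and 28, 22 and 41 in the 3mo IOP libraries. It was also called in 3mo contralateral replicates 2 and 3 with 19 and 14, and in 18mo untreated replicate 6 with 11 fragments, and in no 18mo contralateral library. At 3mo, chr17:72242043-72242464 in the body of the receptor kinase gene Alk held 23, 13 and 15 fragments in IOP libraries, and all 6 contralateral and IOP libraries of 18mo called it too. It was also called in 2 of 3 untreated libraries of 3mo and 1 of 3 of 18mo. The region chr14:76760528-76761041, 0.585 kb from the start of the noncoding gene 4930431P22Rik, held 10, 13 and 11 in IOP libraries of 3mo. It was also called in 2 of 3 untreated libraries of 3mo. At 18mo, 3 of 3 contralateral, 2 of 3 IOP and 2 of 3 untreated libraries called it.

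The AP-1 motif was found in 7 of the 11 regions gained at 18mo (63.6%). It was in 52 of 175 windows of all regions gained at 18mo (29.7%), in 8.52% of all desert regions, in 0 of the 4 desert regions gained at 3mo and in 4 of the 13 lost at 3mo. The count is small, was noticed in these data and was not tested. In the libraries that did not define them, 2, 4 and 7 of the 11 regions were called in 3mo IOP and 0, 4 and 2 in 3mo contralateral libraries, which overlapped. The counts were 0, 3 and 1 in 3mo untreated and 0, 0 and 2 in 18mo untreated libraries. The 7 AP-1 matches are shown because they carry the AP-1 count, with 17 bases to either side and the motif in capitals (mm10, plus strand). The distance from the motif to the summit ran from 1 to 49 bp.
Between Pom121l12 and Vstm2a, chr11:15770105-15770145: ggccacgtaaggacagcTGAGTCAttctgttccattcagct
In the Ebf1 body, chr11:44902337-44902377: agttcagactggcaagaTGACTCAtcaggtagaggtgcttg
Between Tmem161b and Ccnh, chr13:84449441-84449481: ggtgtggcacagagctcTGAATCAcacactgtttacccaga
Between Ankrd7 and Kcnd2, chr6:20290712-20290752: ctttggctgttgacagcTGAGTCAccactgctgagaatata
Between Cdh8 and Cdh11, chr8:99679613-99679653: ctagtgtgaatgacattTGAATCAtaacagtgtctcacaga
Between Disc1 and Sipa1l2, chr8:125286416-125286456: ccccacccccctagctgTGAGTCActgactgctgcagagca
Between Bckdhb and Gm11114, chr9:84360049-84360089: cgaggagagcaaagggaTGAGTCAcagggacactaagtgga
Fragments at the summits of these 7 in the 18mo IOP libraries ran from 10 to 45.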

How the data were processed

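The data were peak lists of 18 ATAC-seq libraries of mouse retina in 6 groups of 3. The labels' processing notes name STAR 2.7.8a, MACS2, HOMER, edgeR and bedtools 2.29.2 with mm10, without their roles for these files. Peaks were called by the authors with MACS2, 1 list per library and without pooling. Each deposited list holds a score, the fold of the summit pileup over local background (a ratio), the −log10 p-value and −log10 q-value at the summit, and the summit position. Duplicate removal and the handling of transposase offsets are not given in the sources used here, and no depth is given. Such steps, and the fragment length, decide which weak regions pass.

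Regions were merged, annotated with GENCODE M21 (comprehensive set, mm10) and read from GRCm38 with Python 3.11.15, numpy 2.4.6, pandas 2.3.3 and scipy 1.17.1. The study's model of read counts was not applied, since peak lists hold no reads per region. A library called a region when its peak overlapped it by 1 bp. Percentiles rank −log10 q among the peaks of 1 library. Fragments at a summit were the whole number that gave both the deposited fold and p-value of a Poisson tail (relative tolerance 1e-04). Groups, taken from the labels, were compared by two-sided exact permutation tests over libraries, adjusted by Benjamini-Hochberg over 8 tests, and age per region by Fisher's exact test. Each library came from an eye, but whether replicates of a group are separate animals is not stated in the labels, so p-values measure the spread between these libraries. Methods were tested on simulated data. The regions, gene lists, motifs and tests were chosen with earlier results of these data known. Regions named are the top-ranked one of the 6 stretches with most regions, the 3 of highest percentile in 9 or more lists, the 3 farthest, and the leading ones for age (3 per direction) and IOP (2 per direction and age); the other AP-1 regions were chosen after their values were seen. Some regions that this rule names are not reported here.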

Additional observations from a re-analysis of the deposited data

How the results depend on the processing

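Of 144 values under alternatives other than leaving out a library, 113 kept the direction of a difference or stayed within 1.5 times for a count, 6 changed direction and 25 counts moved further, and no adjusted p passed the threshold under any of them. Differences that kept their direction could shrink: with equal peak numbers, regions called after IOP at 18mo went from -748 to -85.3 and the share with age from -1.08 to -0.655 points. That setting also left fewer desert regions, 1689. With TSSs of every biotype the share with age was -0.0744 points (exact permutation p = 0.0303, adjusted p = 0.242). Only 197 regions were left there, so every share was smaller by construction and the points are not comparable. Direction changed for the number of desert regions called with age (-37.0 as reported), which became 54.5 with a distance limit of 100 kb, 8.67 when a peak had to cover 50% of a region, 349 in contralateral controls only, and 143 with the regions rebuilt without 3mo contralateral replicate 2, for the number called after IOP at 3mo (276 when rebuilt), and for the share by kind of control (0.539 points with 50% cover). Counts of regions shrank or grew with the number admitted. At 100 kb, 12 and 2 regions were exclusive to 18mo and 3mo controls, 19 were gained and 33 lost at 3mo, and 24 gained and 283 lost at 18mo. At 500 kb, 2 were exclusive to 18mo, 0 gained and 1 lost at 3mo, and 2 gained and 33 lost at 18mo, and with TSSs of every biotype these were 0, 0, 0, 2 and 9. With 50% cover, 7 were gained at 3mo and 81 lost at 18mo. With equal peak numbers, 1 was exclusive to 3mo and 30 were lost at 18mo. In contralateral controls only, 70 and 10 were exclusive to 18mo and 3mo, and in untreated only 36 and 79. Rebuilt, 54 were gained at 3mo. The rebuilding, the exclusive counts within a kind of control and the basic gene set were chosen after seeing the data.

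Leaving out a library in turn gave 120 values, of which 7 changed direction and 21 moved. The ranges were -160 to 141 for regions called with age and -1.29 to -0.882 points for their share, -456 to 283 and -0.703 to 0.143 points after IOP at 3mo, -958 to -496 and -1.32 to -0.433 points after IOP at 18mo, -0.983 to -0.091 points for the difference between ages, -1.07 to -0.465 points for the kind of control, 6 to 12 and 0 to 1 for regions exclusive to 18mo and 3mo controls, 6 to 54 gained and 15 to 103 lost at 3mo, and 14 to 34 gained and 141 to 284 lost at 18mo. Replicate numbers 1 to 3 recur in contralateral and IOP libraries, but the deviations of same-numbered libraries from their group means over variable regions correlated at only -0.0675 to 0.0981, and not every library correlated best with its own number, so the numbers were not taken as pairs. With the number as a replicate block, the differences after IOP were the same by construction (-177 regions and -0.342 points at 3mo, -748 regions and -0.839 points at 18mo, -0.497 points between ages), and exact permutation p-values were 1.0, 0.5, 0.25, 0.25 and 0.469, the block changing no call. The number of libraries limits the tests over groups, and weak regions near the calling threshold limit every count of calls.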
